A study of Homo sapiens with 30 samples.

Results

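The aryl hydrocarbon receptor (AhR) gene set examined here held 9 genes, namely the receptor gene AHR, its dimerisation partners ARNT and ARNT2, the repressor AHRR, the AhR-responsive genes CYP1B1, TIPARP, ALDH3A1 and ABCG2, and the cochaperone gene PTGES3. The genes were listed by name and matched through their identifiers, and 9 of 9 were found among the 60483 gene records of the series. AhR is a transcription factor that waits in the cytoplasm bound to HSP90 and the cochaperone p23 (the product of PTGES3) until a ligand, such as a dioxin or a tryptophan metabolite, binds it. It then enters the nucleus, pairs with ARNT or ARNT2 and binds DNA at xenobiotic response elements, where it drives detoxifying enzymes such as CYP1A1 and CYP1B1 as well as its own repressors, AHRR and TIPARP. In tumours the pathway is known for linking tryptophan breakdown to immune suppression.

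The 30 libraries came from PANC-1, a wild-type epithelial cell line established from a human pancreatic ductal carcinoma, with 3 biological replicates in each of 10 groups. The controls were DSLB-free tumoroids and hybrid tumoroids built with plain DSLBs, which are oil droplets wrapped in a lipid bilayer that carry no protein and act as synthetic cells. In the other 8 groups (ART-TIMEs) the DSLBs presented PD-1, either by itself or joined by 1 of the costimulatory proteins CD2, CD27, CD40L and ICOS or of the inhibitory proteins CTLA4, LAG3 and TIGIT. These 8 are called the protein groups below, and the 7 with a second protein are called the co-ligand groups. All groups shared the cell line, medium with 1% serum and 150 ng of input RNA. The labels give 50000 to 100000 cells per tumoroid, and the study's RNA sequencing methods give 100000. Since PD-1 was present in each protein group, an effect of PD-1 and one of coupling any protein to the droplets cannot be told apart, and the 8 comparisons with plain-DSLB hybrids share the same 3 control libraries. In bulk RNA, fewer cells of a type and less RNA per cell cannot be told apart either.

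Summed expected counts ran from 21.9 M to 60.5 M reads per library, with a median of 40.6 M. The keratin genes KRT8, KRT18 and KRT19 and the mesenchymal gene VIM marked the PANC-1 cells, and 6 of the 7 epithelial and PANC-1 markers exceeded 10 TPM in all 30 libraries. Of 13 leukocyte markers, CD3E, CTLA4 and CD40LG were at 0 in all 30 libraries and 11 stayed below 1 TPM throughout. In log2 CPM, the mean distance of a library from the other two of its group, divided by the distance between those, was highest for PD-1/LAG3 replicate 3 (1.7), DSLB-free replicate 2 (1.67), PD-1/CD40L replicate 3 (1.51) and PD-1 replicate 1 (1.37), and at most 1.3 for the rest. The fit called without 3 libraries below leaves out these but for PD-1/CD40L replicate 3, which was left out on its own.

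Levels of the members differed widely within a library. As medians over the 30 libraries in TPM, a unit scaled for transcript length, PTGES3 stood highest at 322, followed by CYP1B1 at 43, ARNT at 28.4, AHR at 20.4, TIPARP at 14, ABCG2 at 11.9, AHRR at 11.8, ARNT2 at 3.5 and ALDH3A1 at 0.22. ARNT was thus the more abundant of the 2 partner genes, with 6.06 to 7.88 ARNT transcripts per ARNT2 transcript in the 6 control libraries and 5.9 to 10.6 in the 24 libraries of the protein groups. Among the other targets of AhR, the classical target CYP1A1 stayed at or below 0.32 TPM in all 30 libraries.

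**Figure D1:**
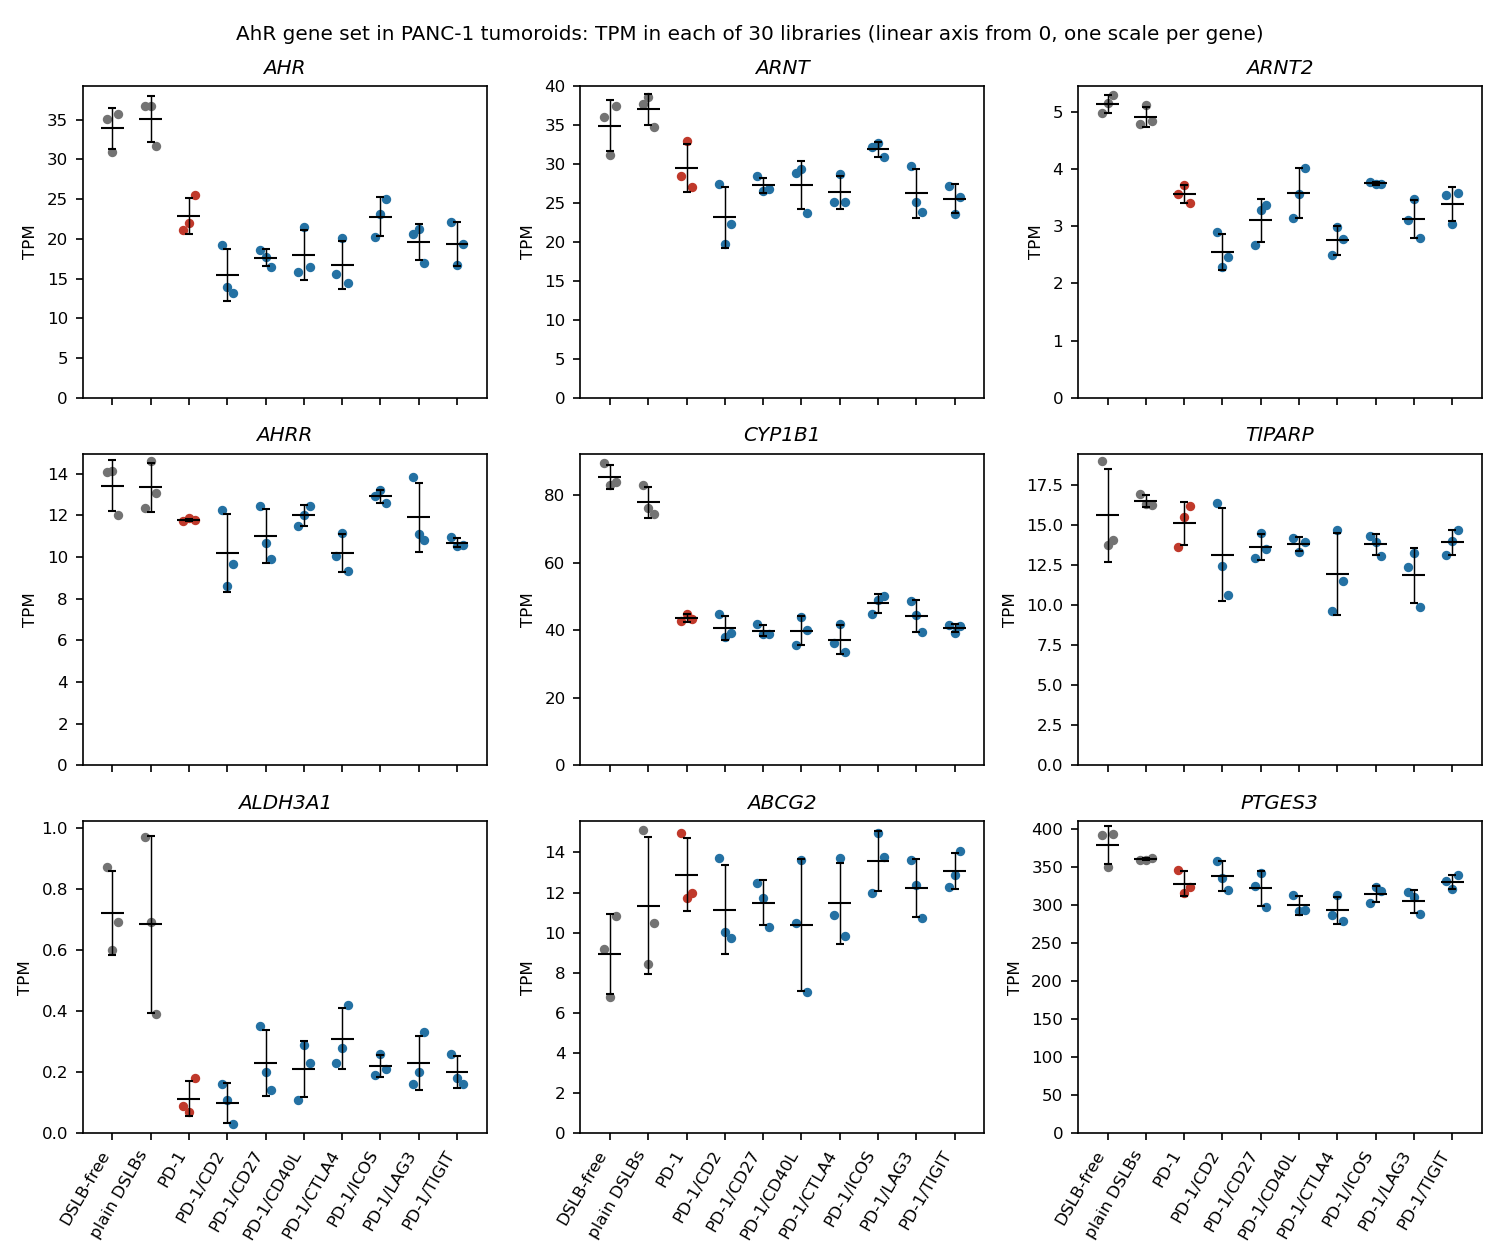
TPM of each of the 9 genes (vertical axes, from 0, a scale of its own per gene) in the 10 groups (horizontal axis); points are the 3 libraries of a group, the bar is the mean and the whiskers are 1 SD. AHR, ARNT2 and CYP1B1 sit higher in all 6 control libraries (grey) than in any of the 24 libraries with PD-1 on the DSLBs (PD-1 alone in red, co-ligand groups in blue). The share of all genes split in this way was not counted, and 41% of genes differed over the 10 conditions.

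Promoters are shown for 3 members that hold the core of the xenobiotic response element, GCGTG on either strand (its reverse is CACGC), in the 250 bases before a listed start, from RefSeq on GRCh38.p14. Each of these genes has several starts, and the window shown was chosen for its matches, in AHRR for the extended form. In all, 36.2% of the 27305 genes in that table hold the core in such a window, and 5.54% hold the extended form TNGCGTG, so a core is common. Of the 9 members, 6 had an entry, AHR and ARNT held no core in their window, and AHRR, TIPARP, ABCG2 and PTGES3 held a core in at least 1 of theirs. The core stood before 2 of 2 starts of AHRR (the extended form before 1), 1 of 3 of TIPARP, 3 of 5 of ABCG2 and 1 of 1 of PTGES3. CYP1B1, ARNT2 and ALDH3A1 had no entry. Capitals mark the core, and in AHRR the extended form, and each sequence runs 5′ to 3′ on the strand of the gene.
AHRR, chr5:321464-321713, plus strand: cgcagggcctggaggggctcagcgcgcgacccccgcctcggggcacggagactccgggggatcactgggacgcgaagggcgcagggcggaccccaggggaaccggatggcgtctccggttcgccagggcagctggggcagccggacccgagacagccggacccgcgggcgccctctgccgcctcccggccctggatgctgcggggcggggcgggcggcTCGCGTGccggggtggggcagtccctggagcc
TIPARP, chr3:156674340-156674589, plus strand: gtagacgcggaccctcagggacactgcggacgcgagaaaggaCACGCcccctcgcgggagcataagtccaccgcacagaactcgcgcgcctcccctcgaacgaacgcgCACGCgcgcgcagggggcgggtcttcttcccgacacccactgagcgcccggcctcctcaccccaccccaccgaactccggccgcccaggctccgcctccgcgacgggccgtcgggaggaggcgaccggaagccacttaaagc
ABCG2, chr4:88158640-88158889, minus strand: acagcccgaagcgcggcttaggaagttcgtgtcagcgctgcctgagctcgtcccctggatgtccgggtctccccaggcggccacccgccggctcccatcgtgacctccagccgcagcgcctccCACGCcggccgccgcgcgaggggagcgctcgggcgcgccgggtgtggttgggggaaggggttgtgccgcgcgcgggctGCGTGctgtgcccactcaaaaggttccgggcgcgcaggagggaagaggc
A match to these letters is a description of the sequence and not a bound site.

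The first comparison asked which of these genes differed between any of the 10 conditions. AHR, ARNT2, CYP1B1 and ABCG2 passed that test, with adjusted p-values of 2.3e-08, 3.66e-07, 3.68e-12 and 0.000683 by edgeR's quasi-likelihood F test. Across all 18424 genes tested, 41% passed. ARNT (adjusted p = 0.0967), AHRR (0.0817), TIPARP (0.145) and PTGES3 (0.224) did not pass, although the number of members that did, counting ALDH3A1, rose from 5 to 8 without DSLB-free replicate 2. ALDH3A1 exceeded the filter on low counts in 7 libraries, of which 6 were controls, so that a gene with its pattern had to differ, and its tests are not used. A test among the 8 protein groups alone, added after the values had been seen, passed for AHR (adjusted p = 0.033) and ARNT2 (0.0173) and not for the other 7 genes, against 2.88% of all genes. That count fell to 1 without PD-1 replicate 1, PD-1/CD2 replicate 2, PD-1/CD27 replicate 3, PD-1/CD40L replicate 1 or 2, PD-1/CTLA4 replicate 1 or 3, PD-1/ICOS replicate 2 or 3, or PD-1/TIGIT replicate 1 or 3.

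Plain droplets were compared with no droplets first. None of the 9 members passed the test between plain-DSLB hybrids and DSLB-free tumoroids, where 0.0109% of all genes did by edgeR and 1 of the 8 members other than ALDH3A1 reached an unadjusted p below 0.05. That member was ABCG2, with a log2 fold change of 0.24 and an unadjusted p of 0.0459 (adjusted p = 0.812). For AHR the difference was 0.08 on the log2 scale with a 95% interval of -0.10 to 0.26, and for CYP1B1 it was -0.04 with an interval of -0.17 to 0.09. DESeq2 and limma-voom likewise called 0 members here.

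Hybrids with protein-bearing DSLBs differed from plain-DSLB hybrids at the receptor itself, at ARNT2 and at CYP1B1, which were lower in 8 of 8 protein groups. ABCG2 was higher in 5 of 8, ARNT and TIPARP were lower in 2 of 8 each, and AHRR and PTGES3 passed the test in none. ALDH3A1 is set aside in these counts. The other 8 members gave 28 lower and 5 higher calls in 64 tests, 3 to 5 calls in each comparison. Among all genes, PD-1 hybrids had 22% called (10.7% lower, 11.3% higher) and PD-1/CD2 hybrids 29.6% (15.4% lower, 14.1% higher). PD-1/CTLA4 hybrids had 34.2% called (17.2% lower, 17% higher) and PD-1/LAG3 hybrids 30.3% (14.1% lower, 16.2% higher). PD-1/CD40L hybrids had 25.5% called (12.3% lower, 13.2% higher) and PD-1/CD27 hybrids 23.8% (11.4% lower, 12.4% higher). PD-1/TIGIT hybrids had 22.5% called (11.6% lower, 10.9% higher) and PD-1/ICOS hybrids 19.6% (9.8% lower, 9.81% higher). The libraries of AHR, ARNT2 and CYP1B1 did not overlap with those of plain DSLBs in 8 of 8 comparisons. Over all genes, either way, this held for 46.8% with PD-1, 40.7% with PD-1/CD2, 46.1% with PD-1/CD27, 44% with PD-1/CD40L, 46.4% with PD-1/LAG3, 49.1% with PD-1/TIGIT and 47.6% with both PD-1/CTLA4 and PD-1/ICOS. The median log2 fold change of the 8 members lay between -0.22 and -0.06, against -0.00 to 0.03 for all genes.

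**Figure D2:**
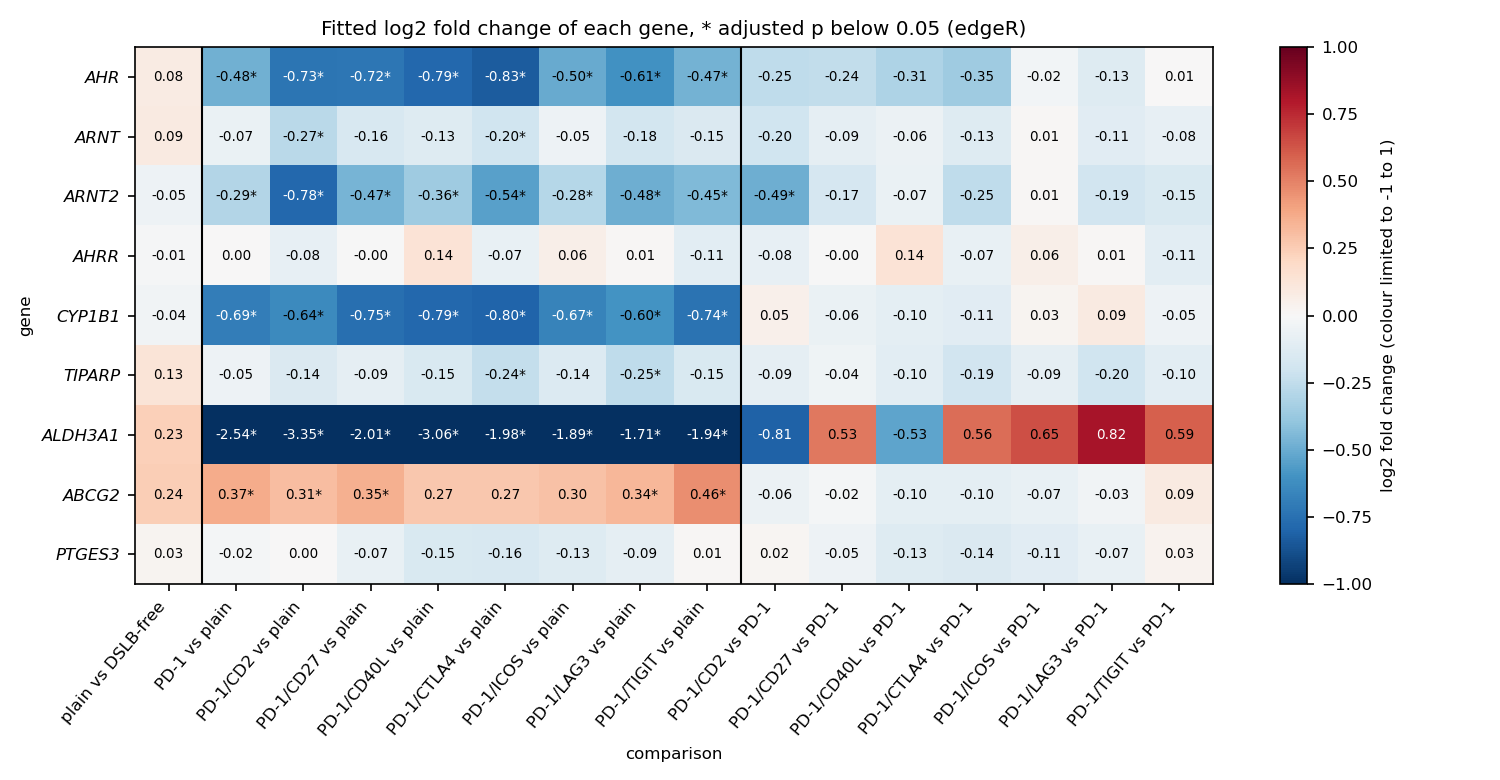
Fitted log2 fold change of each of the 9 genes (rows) in 16 comparisons (columns; black lines separate plain against DSLB-free, the 8 protein groups against plain, and the 7 co-ligand groups against PD-1); an asterisk marks an adjusted p below 0.05, and the colour scale is limited to -1 to 1. AHR, ARNT2 and CYP1B1 carry an asterisk in all 8 comparisons with plain DSLBs, those of ALDH3A1 are not used because it passed the filter on low counts through the control libraries, and ARNT2 for PD-1/CD2 carries the single asterisk among the comparisons with PD-1.

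AHR (chr7:16916359-17346152, plus strand, in GENCODE v44 on GRCh38, as for the genes that follow) encodes the ligand-binding receptor. Its libraries, in CPM, counts scaled to library totals with TMM factors, measured 103, 84.8 and 110 without DSLBs and 105, 110 and 100 with plain DSLBs. With PD-1 alone they measured 74, 76 and 76.7. All 3 PD-1 libraries lay below all 6 control libraries, a split that was not counted over all genes. The lowest levels were 56.1, 63.2 and 57.7 CPM with PD-1/CTLA4, 60.7, 59.2 and 62.8 with PD-1/CD40L, 72.1, 62.5 and 55.6 with PD-1/CD2 and 67.1, 64.1 and 60.3 with PD-1/CD27. The remaining groups held 75.5, 68.8 and 62.9 with PD-1/LAG3, 70.9, 73.5 and 78.4 with PD-1/ICOS and 79.4, 70 and 78.4 with PD-1/TIGIT. Ordered by mean, each protein group overlapped its neighbour, while the highest of them did not overlap the DSLB-free tumoroids. Against plain DSLBs the log2 fold change ran from -0.47 in PD-1/TIGIT hybrids (SE 0.0882, adjusted p = 0.000337) to -0.83 in PD-1/CTLA4 hybrids (SE 0.0888, adjusted p = 7.26e-08), which is 27.8% to 43.8% lower. With a gene length trend removed from each library the range was -0.61 to -0.26, and 8 of 8 still passed.

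CYP1B1 (chr2:38066973-38109902, minus strand), a cytochrome P450 that oxidises oestrogens and polycyclic hydrocarbons, is a well-known AhR target and was the most abundant target of the set. It measured 225, 203 and 230 CPM without DSLBs and 221, 213 and 206 with plain DSLBs. With PD-1 it measured 136, 132 and 130, with PD-1/CD2 144, 130 and 138 and with PD-1/CTLA4 125, 130 and 112. Over the 24 libraries of the protein groups it ranged from 112 to 150 CPM, with a median of 130, below the lowest control library at 203. How many of all genes are split in this way was not counted. Fold changes against plain DSLBs ran from -0.60 in PD-1/LAG3 hybrids (SE 0.0639, adjusted p = 9.61e-08) to -0.80 in PD-1/CTLA4 hybrids (SE 0.0642, adjusted p = 5.07e-10), or 33.9% to 42.6% lower. None of the 7 co-ligand groups differed from PD-1 in the test, with log2 differences between -0.11 and 0.09 and 95% intervals reaching from -0.24 to 0.22. The CYP1B1 to AHR ratio in TPM was 2.08 to 2.68 in the control libraries and 1.7 to 2.97 in the protein groups, so these ranges overlapped. The gene is overlapped on the other strand by CYP1B1-AS1 and RMDN2, and the sources used here do not say whether counting used strand.

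ARNT2 (chr15:80404350-80597933, plus strand), a partner of AhR best known from the nervous system, fell by 0.28 to 0.78 on the log2 scale against plain DSLBs. Its libraries measured 17.5, 16.4 and 17.3 CPM without DSLBs, 16.8, 15.4 and 17.4 with plain DSLBs and 14.2, 13.2 and 13.1 with PD-1. The lowest were those with PD-1/CD2, at 10.3, 9 and 9.5. Those 3 values lay below all 27 other libraries, a split that was not counted over all genes. PD-1/CTLA4 hybrids came next with 11.1, 11.7 and 11.2, and PD-1/ICOS hybrids were highest of the protein groups with 14.1, 12.5 and 14.2. Between these ends, the means of neighbouring groups in the order PD-1/CTLA4, PD-1/LAG3, PD-1/CD27, PD-1/TIGIT, PD-1/CD40L, PD-1 and PD-1/ICOS overlapped. The log2 fold change against plain was -0.78 for PD-1/CD2 (SE 0.0892, adjusted p = 2.37e-07) and -0.29 for PD-1 (SE 0.0874, adjusted p = 0.0162). With a gene length trend removed the range was -0.52 to -0.12 and 4 of 8 comparisons passed, those with PD-1, PD-1/CD40L, PD-1/ICOS and PD-1/TIGIT being lost. The call for PD-1 was also lost without plain replicate 1 or 3 or PD-1 replicate 2 or 3 (adjusted p of up to 0.0745), and that for PD-1/ICOS without plain replicate 1 or 3 or PD-1/ICOS replicate 2 (up to 0.124).

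ARNT (chr1:150809713-150876708, minus strand), the partner shared by AhR and the hypoxia-inducible factors, changed little in counts. Its group means spanned 49.9 ± 5.4 CPM (SD, n = 3) with PD-1/CD2 to 60.03 ± 2.58 with plain DSLBs. It was lower than with plain DSLBs in PD-1/CD2 hybrids, which measured 56.1, 47.1 and 46.5 against 58.8, 63 and 58.3 CPM (log2 fold change -0.27, SE 0.0743, adjusted p = 0.00758), and in PD-1/CTLA4 hybrids (-0.20, adjusted p = 0.0375). The first call was lost without PD-1/CD2 replicate 2 (adjusted p = 0.0508), and the second without plain replicate 1 or 2 or PD-1/CTLA4 replicate 1 or 3 (adjusted p of up to 0.155), with a length trend removed (-0.11) or with no filter (adjusted p = 0.121). The PD-1/CD2 call was also lost when the 6 libraries were fitted alone (adjusted p = 0.0501). In PD-1/LAG3 hybrids ARNT was called without PD-1/LAG3 replicate 1 (-0.24, adjusted p = 0.0246), by DESeq2 (adjusted p = 0.0444) and among genes with a mean count of at least 100 (adjusted p = 0.027). Of all genes, DESeq2 called 32.1% there and the fit at a mean count of at least 100 called 40.7%, against 30.3% in the main fit. On log2(TPM + 0.1), 7 of 8 comparisons passed for ARNT with differences of -0.69 to -0.21. RSEM's estimated ARNT length was 3032 to 3322 nt with PD-1/CD2, 2726 to 3090 nt with PD-1 and 2527 to 2688 nt with plain DSLBs, and TPM divides by this length. TPM also moved the median gene by -0.12 to -0.03 relative to CPM in the comparisons with plain DSLBs, so a TPM difference is best read against that shift.

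The repressor genes gave few calls. AHRR (chr5:321714-438291, plus strand), which competes with AhR for ARNT, had group means of 27.2 to 32.1 CPM, and its fold changes against plain DSLBs lay between -0.11 and 0.14 with adjusted p-values of at least 0.126. The window printed for AHRR among the sequences, before 1 of its 2 listed starts, holds the extended element. There were 0.336 to 0.457 AHRR transcripts per AHR transcript in the control libraries and 0.462 to 0.759 in the protein groups, on the TPM scale, without overlap. How often ratios of other gene pairs separate in this way was not counted. The sign for AHRR depended on scale, as all 8 differences lay between 0.03 and 0.25 with a length trend removed (2 of 8 passing) and between -0.40 and -0.04 on log2(TPM + 0.1) (3 of 8 passing). TIPARP (chr3:156673235-156706770, plus strand), an ADP-ribosyltransferase that promotes AhR breakdown, measured 34.4, 33.9 and 32.4 CPM with plain DSLBs. It was lower with PD-1/CTLA4, at 26, 31.6 and 27.6 (log2 fold change -0.24, SE 0.0776, adjusted p = 0.0181), and with PD-1/LAG3, at 29.6, 28.6 and 26.3 (-0.25, SE 0.0773, adjusted p = 0.0142). In both, the 3 protein libraries lay below the 3 plain libraries. Such a gap, either way, held for 47.6% of all genes with PD-1/CTLA4 and 46.4% with PD-1/LAG3. The PD-1/CTLA4 call was lost without plain replicate 1 or 2 or PD-1/CTLA4 replicate 1 or 3 (adjusted p of up to 0.102), and the PD-1/LAG3 call without plain replicate 1 or PD-1/LAG3 replicate 3 (up to 0.0858). Both were also lost with a length trend removed, at -0.09 and -0.13. The antisense gene TIPARP-AS1 overlaps TIPARP, and AHRR shares its strand with the readthrough gene PDCD6-AHRR, so reads of these pairs may be divided.

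ABCG2 (chr4:88090150-88231628, minus strand), a drug efflux pump of the plasma membrane, moved the other way on the count scale. It measured 16.4, 12.7 and 17.2 CPM without DSLBs, 20.6, 16.4 and 17.7 with plain DSLBs and 25.1, 23.9 and 21.5 with PD-1. PD-1/TIGIT hybrids were highest at 25.4, 23.8 and 26.1. The log2 fold change against plain was 0.46 for PD-1/TIGIT (SE 0.115, adjusted p = 0.0046), 0.37 for PD-1, 0.35 for PD-1/CD27, 0.34 for PD-1/LAG3 and 0.31 for PD-1/CD2, which passed the test. PD-1/ICOS (0.30, adjusted p = 0.0708), PD-1/CTLA4 (0.27, 0.0684) and PD-1/CD40L (0.27, 0.0894) did not. The calls for PD-1/LAG3, PD-1/CD27, PD-1/CD2 and PD-1 were each lost without plain replicate 2 or 3 or without replicate 1 or 2 of the protein group, with adjusted p-values of up to 0.193, whereas the PD-1/TIGIT call was kept without each of its 6 libraries in turn. The other 3 comparisons passed without plain replicate 1, with adjusted p-values of 0.0297 to 0.0396, and PD-1/CTLA4 also passed without its replicate 3 (0.0477). All 8 comparisons passed with no filter on low counts (0.28 to 0.48), with a length trend removed (0.32 to 0.53) and without the 3 libraries (0.27 to 0.46), and 4 of 8 with limma-voom. On log2(TPM + 0.1) the range was -0.14 to 0.29 and 0 of 8 passed, so the direction for ABCG2 also depends on the scale.

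ALDH3A1 (chr17:19737984-19748943, minus strand), an aldehyde dehydrogenase, was barely expressed. It was counted 38, 28 and 9 times in the plain-DSLB libraries and 30, 34 and 26 times without DSLBs. With PD-1 it was counted 4, 4 and 7 times, with PD-1/CD2 2, 6 and 1 times and with PD-1/CD40L 4, 2 and 2 times, and no library of a protein group exceeded 14 counts. Summed over 3 libraries and scaled for their totals, the level was 0.153 of that with plain DSLBs for PD-1. It ranged from 0.091 for PD-1/CD2 to 0.283 for PD-1/LAG3. These ratios only describe the counts, since the gene was kept through the control libraries, and no test is given for it. All 24 protein libraries lay below all 6 control libraries in CPM, a split that the filter favours in a gene this low. They did not in TPM, where RSEM's length for the gene fell to 448 nt in 1 library with 2 counts.

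PTGES3 (chr12:56663341-56688408, minus strand), whose product p23 stabilises HSP90 with its clients, was the most abundant member. Group means lay between 361.6 ± 11.2 CPM (SD, n = 3) with PD-1/CTLA4 and 407.9 ± 7.55 CPM with PD-1/TIGIT, and neighbouring groups overlapped. Differences from plain DSLBs ran from -0.16 to 0.01 on the log2 scale, and the 95% intervals together spanned -0.31 to 0.16, so a change of more than that in any protein group lies outside them. On log2(TPM + 0.1) 4 of 8 passed, with differences of -0.30 to -0.09, and without the 3 libraries PD-1/CTLA4 passed at -0.16 (adjusted p = 0.0443).

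Each co-ligand group was also compared with PD-1 alone, the comparison that the study made. The study's methods give the same final protein density for PD-1 alone and for the blends, and do not state the PD-1 density of the blends. An effect of the second protein and one of a changed PD-1 density therefore cannot be told apart. Of 56 tests of the 8 members other than ALDH3A1, 1 passed, and it was ARNT2 with PD-1/CD2. Of all genes, 2.29% were called with PD-1/CD27, 1.23% with PD-1/CD2, 0.0434% with PD-1/CTLA4, 0.0109% with PD-1/CD40L and 0% in the other 3 groups, so for most of these groups few genes of any kind passed. ARNT2 was 0.49 lower on the log2 scale (SE 0.0889, 95% interval -0.67 to -0.31, adjusted p = 0.0112). Its 3 PD-1/CD2 libraries lay below its 3 PD-1 libraries, a gap seen either way in 16.2% of all genes. The call was lost without PD-1 replicate 1 (-0.44, adjusted p = 0.0743), without PD-1/CD2 replicate 3 (-0.48, adjusted p = 0.0586), when the 6 libraries were fitted on their own (-0.49, adjusted p = 0.127) and on log2(TPM + 0.1) (-0.47, adjusted p = 0.0949). It was kept without the 3 libraries, at -0.45 (adjusted p = 0.0352).

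AHR and ARNT were also lower with PD-1/CD2 than with PD-1 without passing the test. The log2 differences were -0.25 for AHR (SE 0.0884, 95% interval -0.43 to -0.07, adjusted p = 0.154) and -0.20 for ARNT (SE 0.0741, 95% interval -0.35 to -0.05, adjusted p = 0.181). Without PD-1/CD2 replicate 1 both passed, at -0.35 (adjusted p = 0.0351) and -0.29 (adjusted p = 0.0336). In counts, the largest AHR difference from PD-1 was in PD-1/CTLA4 hybrids at -0.35 (SE 0.0886, 95% interval -0.54 to -0.17, adjusted p = 0.131), followed by PD-1/CD40L at -0.31 (adjusted p = 0.173) and PD-1/CD27 at -0.24 (adjusted p = 0.144). The first passed with DESeq2 (adjusted p = 0.0389) and with no filter (0.00259), the second with no filter (0.0148) and with a length trend removed (0.0456), and the third when the 6 libraries were fitted alone (0.0239). More of all genes were called in these fits too. For PD-1/CTLA4 it was 0.48% with DESeq2 and 1.75% with no filter, against 0.0434% in the main fit. For PD-1/CD40L it was 1.2% with no filter and 0.174% with the length trend removed, against 0.0109%. For PD-1/CD27 it was 6.1% with the 6 libraries alone, against 2.29%. In TPM the lowest AHR mean was that of PD-1/CD2, at 15.4 against 16.7 for PD-1/CTLA4. In PD-1/ICOS and PD-1/TIGIT hybrids AHR differed from PD-1 by -0.02 and 0.01, with 95% intervals of -0.20 to 0.16 and -0.17 to 0.19. CYP1B1 with PD-1/CD2 was 0.05 above PD-1 with an interval of -0.08 to 0.18. The AHR libraries lay below the PD-1 libraries without overlap in 4 groups. Such a gap, either way, was seen in 16.2% of all genes for PD-1/CD2, 26.9% for PD-1/CD27, 19.9% for PD-1/CD40L and 17.8% for PD-1/CTLA4.

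The AHR difference depended on the unit. In CPM the PD-1/CD2 mean was 0.25 below the PD-1 mean on the log2 scale, and in TPM it was 0.57 below. RSEM's abundance-weighted AHR length, which sets the step from counts to TPM, was 5764 to 6216 nt in the PD-1/CD2 libraries and 4431 to 5076 nt in the PD-1 libraries. The 2 ranges did not overlap, and the same was true in that direction for 8.71% of all genes tested. ARNT2, by contrast, had lengths of 5460 to 5547 nt and 5226 to 5645 nt, which overlapped, and its differences were -0.49 in CPM and -0.48 in TPM. In TPM, the AHR libraries read 19.2, 13.9 and 13.2 with PD-1/CD2, 21.1, 22 and 25.5 with PD-1 and 36.7, 36.7 and 31.7 with plain DSLBs, and the PD-1/CD2 against PD-1 difference of -0.58 on log2(TPM + 0.1) did not pass (limma).

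**Figure D3:**
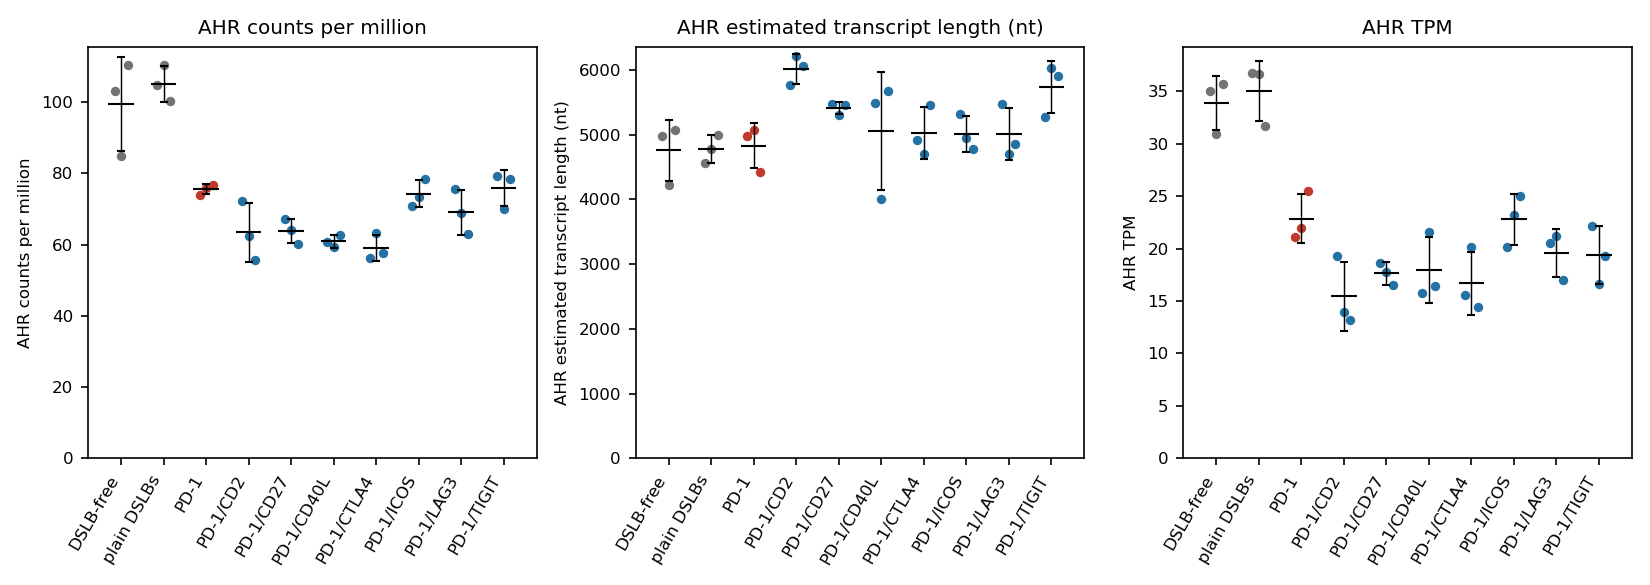
AHR in the 30 libraries as CPM (left), as RSEM's estimated transcript length in nt (middle) and as TPM (right), by group; points are libraries, bars are means and whiskers are 1 SD, and all axes start at 0. The PD-1/CD2 libraries lie at 5764 to 6216 nt, above the PD-1 libraries at 4431 to 5076 nt, and their distance from PD-1 is wider in TPM than in CPM.

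Between co-ligand groups, 1 of 168 tests of the 8 members passed over the 21 pairs, in which 0% to 7.41% of all genes were called. ARNT2 was lower with PD-1/CD2 than with PD-1/ICOS by 0.50 on the log2 scale (SE 0.0889, adjusted p = 0.00452), where 3.13% of all genes were called, and its 2 groups of 3 libraries did not overlap, as for 20.9% of all genes. The call was lost without PD-1/CD2 replicate 2 (-0.45, adjusted p = 0.0588) and when the 6 libraries were fitted alone (adjusted p = 0.123). The study lists ICOS with a human Fc tag besides its His tag, and CD2 with a His tag only. An effect of the ligand and one of that tag cannot be told apart in this pair. Without the 3 libraries ARNT also passed between these groups, at -0.21 (adjusted p = 0.042). For CYP1B1, the differences between co-ligand groups ran from -0.20 to 0.16 and for ABCG2 from -0.19 to 0.08, and the 95% intervals together spanned -0.34 to 0.30 and -0.42 to 0.32.

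Around the members, other genes of the receptor complex and its helpers moved unevenly against plain DSLBs. The counts in these lists stand beside 9.8% to 17.2% of all genes lower and 9.81% to 17% higher per comparison. They come from the fit of all 30 libraries, and the alternatives were run for the members and not for these lists. Among the members, removing a gene length trend took ARNT2 from 8 to 4 calls and ABCG2 from 5 to 8. Its effect on the list genes was not tested. HSP90AA1, the inducible HSP90 chaperone that holds AhR, was lower in 8 of 8 protein groups, with log2 fold changes of -0.41 to -0.22, while HSP90AB1 (-0.13 to 0.04) and the kinase SRC (-0.09 to 0.11) passed in none. Of 7 coactivators and turnover genes, 1 to 6 were lower per comparison and 0 or 1 higher, with list medians of -0.47 to -0.19 against -0.00 to 0.03 for all genes. The coactivator NCOA3 fell in 8 of 8 (-0.88 to -0.65) and the acetyltransferase CREBBP in 6 of 8 (-0.65 to -0.19 over all 8). NCOA2 was lower in 5, and NCOA1, EP300 and the chromatin remodeller SMARCA4 in 3 each. CUL4B, a scaffold of the ubiquitin ligase that AhR can join, was higher in 7 of 8 (0.16 to 0.28 over all 8). Against PD-1, SMARCA4 with PD-1/CD27 was the single call among the genes reported from these 5 lists, at 0.52 higher (SE 0.143, adjusted p = 0.0489).

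Of 11 other bHLH-PAS factors, the protein family of AhR and ARNT, 9 were tested, and 1 to 4 were lower and 0 to 2 higher per comparison, where 1 of 9 is close to the share of all genes. HIF1A, the oxygen-regulated subunit that also pairs with ARNT, was lower in 8 of 8 (-0.69 to -0.49), at 139.9 ± 4.12 CPM (SD, n = 3) with plain DSLBs and 96.1 ± 3.52 with PD-1. Its relative EPAS1 was lower with PD-1/CD2 (-0.40, adjusted p = 0.00333) and PD-1/CTLA4 (-0.31, adjusted p = 0.0198). Of 12 other AhR targets, 6 were tested, with 3 lower and 4 higher calls in 48 tests, against 19.6% to 34.2% of all genes called either way. CYP1A1 gave 2 of the lower calls, but it exceeded the filter in 5 control libraries and in 2 of the 24 protein libraries, so these calls are not used, and its mean was 0.335 CPM with plain DSLBs and 0.0987 to 0.213 CPM in the protein groups. NQO1, a quinone reductase under joint control of AhR and NRF2, was higher with PD-1, PD-1/LAG3 and PD-1/TIGIT (0.25, 0.26 and 0.25).

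Genes of tryptophan catabolism, a source of AhR ligands, gave 15 higher and 0 lower calls in 56 tests of 7 genes, where 9.81% to 17% of all genes were higher. All of these calls came from IL4I1 and KYAT3, and TDO2, AFMID, KMO, KYAT1 and HAAO passed in none. IL4I1, a secreted amino acid oxidase that makes indole and kynurenic products, was higher in 8 of 8 protein groups (0.77 to 1.36), at 0.65 ± 0.068 CPM (SD, n = 3) with plain DSLBs and 1.68 ± 0.202 with PD-1/ICOS. Its level without DSLBs was 0.88 ± 0.078 CPM. KYAT3, a kynurenine aminotransferase, was higher in 7 of 8 (0.13 to 0.36 over all 8). IDO1 and IDO2, which open the kynurenine route, were not tested for want of counts and reached at most 0.2 and 0.02 TPM, and TDO2 reached 0.89 TPM and passed in none.

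**Figure D4:**
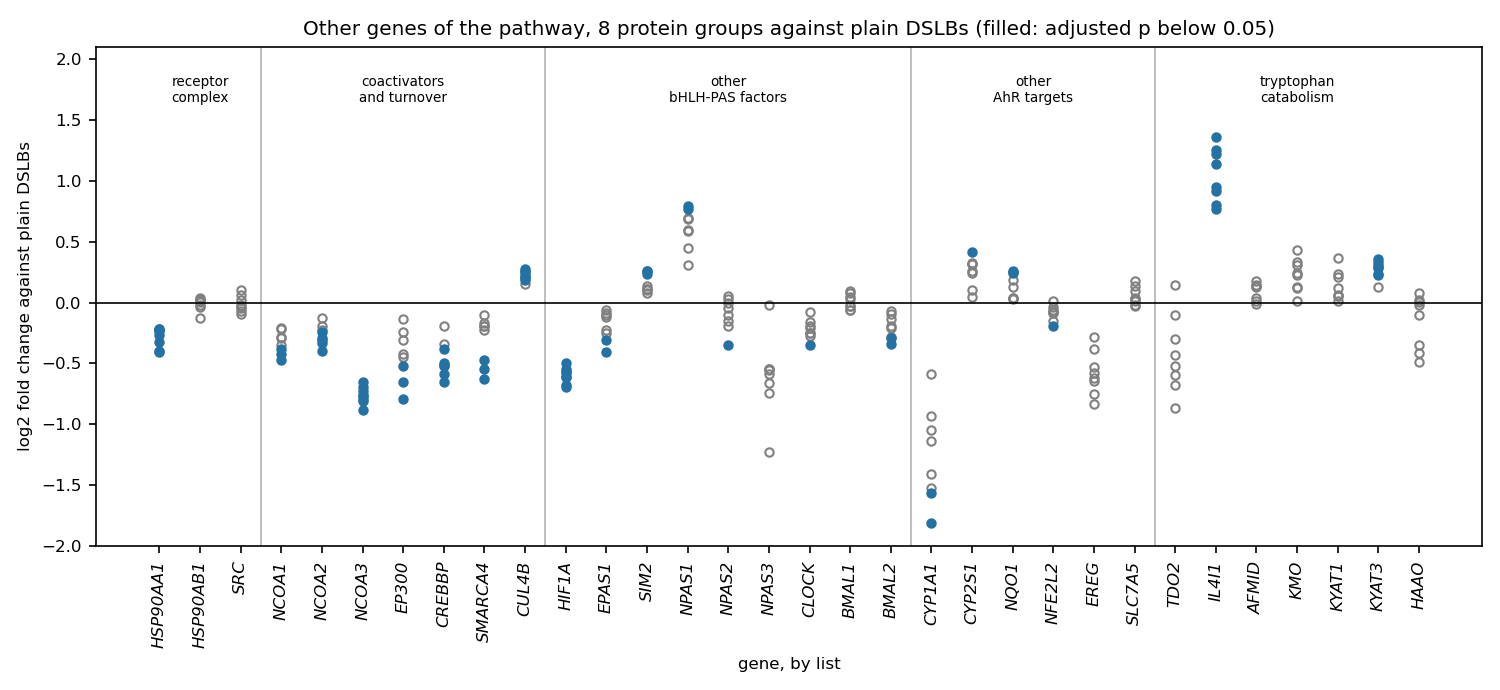
Log2 fold change against plain DSLBs (vertical axis) of the reported genes of 5 lists around AhR (horizontal axis); each gene has 8 points, 1 per protein group, filled where the adjusted p was below 0.05. HSP90AA1, NCOA3 and HIF1A lie below 0 with 8 filled points and IL4I1 above 0 with 8, while most other genes have few filled points. The effect of removing a gene length trend was not tested for these genes.

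Markers of the cells moved along with these differences. Against plain DSLBs, KRT8, KRT18, KRT19 and VIM were higher and CDH1 lower in 8 of 8 protein groups. The 7 epithelial and PANC-1 markers gave 32 higher and 12 lower calls in 56 tests. KRT7 and EPCAM gave no higher call, and the lower calls beyond those of CDH1 were theirs. Of all genes, 9.8% to 17.2% were lower and 9.81% to 17% higher per comparison. The summed level of the 7 markers was 6820 to 7270 TPM with plain DSLBs and 8510 to 9350 TPM in the protein groups. Fibroblast and endothelial markers summed to 300 to 340 TPM with plain DSLBs and 132 to 250 TPM in the protein groups, nearly all of it from COL1A1, and 7 of the 8 genes stayed below 1 TPM in all libraries. Leukocyte markers summed to 3.66 to 6.2 TPM over all 10 groups. The mitochondrial share of counts averaged 3.54% to 5.97% by group. The part of these shifts in the results for the AhR set was not tested.

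Genes that most resembled each member over the 30 libraries were listed as a description, by Pearson's r of log2 CPM among 12660 genes. AHR was closest to FRMD6 (r = 0.968, Spearman's rho = 0.953), ARNT to LRBA (0.916, 0.941), ARNT2 to POLR1A (0.906, 0.843) and CYP1B1 to COL14A1 (0.972, 0.743). ABCG2 was closest to PLK2 (0.931, 0.921), PTGES3 to OSGIN2 (0.908, 0.928), TIPARP to ZZZ3 (0.856, 0.864), ALDH3A1 to URB2 (0.893, 0.836) and AHRR to VPS39 (0.792, 0.746). The libraries of a pair share depth, group and library composition, and the step between controls and protein groups carries much of some values. Within the 24 protein libraries r was still 0.929 for AHR with FRMD6 and 0.919 for ARNT with LRBA, but 0.525 for CYP1B1 with COL14A1. AHR and CYP1B1 themselves had r = 0.87 over 30 libraries and 0.39 within the 24.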

How the data were processed

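Total RNA of 30 PANC-1 cultures was made into directional libraries and read as 75 nt single ends. The authors aligned to hg38 with STAR and deposited, per library, RSEM's expected count per gene, TPM, an abundance-weighted length and a posterior SD of the count. Trim Galore 0.3.3, SAMtools 1.3.1 and FastQC 0.11.2 are listed in the submitters' processing notes. For the strand option and the annotation release, the entry is: not given in the sources used here. Groups came from the sample titles.

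Expected counts were rounded, and 18424 genes kept by filterByExpr (minimum count 10) were fitted in 1 model of 30 libraries with edgeR 4.0.16 (TMM, robust quasi-likelihood F test, Benjamini-Hochberg over all genes, threshold 0.05) in R 4.3.3. The common biological coefficient of variation came to 0.0942. The summed counts of 21.9 M to 60.5 M gave a median SE of 0.115 for PD-1/CD2 against PD-1. The fit was tested on simulated data. Fold changes are on the log2 scale. Intervals are at 95%. Alternatives were DESeq2 1.42.0, limma-voom 3.58.1, limma on log2(TPM + 0.1), other filters and scaling, a length trend removed, fits on both groups alone and single libraries left out. TPM values as deposited were used for levels between genes.

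The members, lists and alternatives were chosen with earlier results of these data known. All 9 members are named, with list genes by call counts and the nearest genes by Pearson's r. The test among the 8 protein groups was added after the values had been seen. Replicates were run in parallel, but no source ties a number to a day or culture. On average, same-numbered libraries did not deviate together, although in 3 of 37 comparisons of groups every same-numbered pair correlated above 0.1. The numbers were therefore not used as pairs. No library repeated another. Gene positions came from GENCODE v44 and promoters from RefSeq. Expected counts and TPM of other genes enter only as background. 1 gene of the receptor complex list is not reported here.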

Additional observations from a re-analysis of the deposited data

Results flagged for a closer look

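ARNT2 differed between 2 co-ligand groups in the test of the difference itself, being 0.50 lower on the log2 scale with PD-1/CD2 than with PD-1/ICOS (log2 fold change -0.50). This was the 1 value of the set that met a rule for a closer look. The call was lost without PD-1/CD2 replicate 2 (adjusted p = 0.0588, edgeR) and when the 6 libraries were fitted alone (0.123). The 2 groups also differ in the Fc tag of ICOS.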

How the results depend on the processing

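Of 2520 recomputed values for single members, 2405 stayed on the same side of the threshold, 58 passed newly, 56 no longer passed and 1 called value changed sign. That 1 was ABCG2 with PD-1/CD2 against plain DSLBs, at -0.0012 on log2(TPM + 0.1) (limma, adjusted p = 0.998). Among the 2405, another 96 changed sign between values that both missed the threshold. The counts here include ALDH3A1, whose 8 calls bring those against plain DSLBs to 41. Its calls are kept only to describe the fits, since its tests are not used. The 41 ranged from 34 to 48 over the alternatives and from 35 to 44 without single libraries. The 34 came from the fit of genes with a mean count of at least 100, where ALDH3A1 has no value. That fit counts only the other 8 members, so its total is not a loss of their calls. The count against DSLB-free tumoroids stayed at 0. Over the 10 conditions the 5 members became 4 to 7, and 5 to 8 without single libraries. Against PD-1 the 1 call became 3 with no filter, 2 with the length trend removed, 0 on log2(TPM + 0.1) and 2 with DESeq2, and 0 to 3 without single libraries. Of all genes, 0.315% to 3.23% were called against PD-1 with no filter, 0% to 4% with the length trend removed and 0.00543% to 4.8% with DESeq2. In the main fit it was 0% to 2.29%. Between co-ligand groups the 1 call became 5 with no filter, 2 at a mean count of at least 100, 5 with the length trend removed, 7 without the 3 libraries, 5 on both groups alone, 3 on log2(TPM + 0.1), 8 with DESeq2 and 7 at a threshold of 0.1, and 0 to 4 without single libraries. Among the protein groups the 2 members became 1 with the length trend removed and 0 on log2(TPM + 0.1), and 1 to 2 without single libraries. ARNT2 with PD-1/CD2 against PD-1 was -0.49 on both groups alone and -0.47 on log2(TPM + 0.1), neither passing, and -0.55 to -0.42 without single libraries. AHR ranged there from -0.35 to -0.17 and ARNT from -0.29 to -0.14 without single libraries. The cause was not tested.

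With the replicate block the counts were 5 over the 10 conditions, 43 against plain DSLBs and 1 between co-ligand groups, and ARNT2 with PD-1/CD2 against PD-1 was -0.49. ABCG2 passed in 7 of 8 comparisons with plain DSLBs under the block, gaining PD-1/CTLA4 (adjusted p = 0.0399) and PD-1/ICOS (0.0375). The mean correlation of deviations was 0.02 for same-numbered libraries and -0.01 for others, and 11 of 30 libraries correlated best with their own number. The test among the protein groups was not run with DESeq2 or on both groups alone, and ALDH3A1 has no value at a mean count of at least 100. Depth limited ALDH3A1, at 9 to 38 counts per plain-DSLB library.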
